A study of Mus musculus with 6 samples.

Results

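The genes described here are 39 genes of apoptosis and the p53 pathway, read from a table of 54532 genes measured in 6 mouse hearts. They were taken by gene symbol from a list that held p53, its regulator and targets, the BCL2 family, caspases, inhibitors of apoptosis and death receptors, and all 39 were found with 1 row each. The series asks how diabetes in pregnancy affects the heart of offspring. The hearts were wild-type ICR, an outbred mouse stock, and carry the label 4d, read here as day 4. In the control group (n = 3) the mothers received citric acid into the peritoneum while pregnant, and in the STZ group (n = 3) they received STZ, read here as streptozotocin, a toxin of insulin-producing beta cells. The labels name no dose, day of injection, maternal blood glucose or litter of a heart, so p-values measure only the spread between these 6 samples, and any part of it may be technical.

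As background, p53 (gene Trp53) is a transcription factor that rises in protein after DNA damage and other stress, is held low by the ubiquitin ligase MDM2, and raises genes for cell cycle arrest, DNA repair and cell death. In the mitochondrial route to apoptosis, BH3-only proteins free BAX and BAK from survival proteins such as BCL2, and cytochrome c then leaves the mitochondrion and starts caspase 9 on the APAF1 scaffold. The death receptor route runs from receptors such as FAS and TNFR1 through FADD to caspase 8. Heart muscle cells are known to lower parts of this machinery as they mature after birth.

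The deposited values are read here as FPKM, that is, normalised per kilobase of the gene length listed with them. Levels of different genes are set side by side on that scale. Whether the listed lengths match the transcripts made in these hearts was not checked, so such comparisons are approximate. Each library rested on 16707268 to 18082599 reads. Control 2 stood apart from the other 5 libraries. The authors' scale for it was 1.21 times its reads, against 0.985 to 1.03 times in the others, so its deposited values are lower than its reads alone would give. Summed over 10 cardiomyocyte markers it was at 7106 FPKM, against 13869 to 16453 FPKM in controls 1 and 3 and 14213 to 15478 FPKM in the STZ hearts, and 9 of the 10 markers were lowest in it. All 7 atrial markers were highest in control 2, at a sum of 6123 FPKM against 36.3 to 119 FPKM elsewhere, and so were all 8 erythroid markers, at 14548 against 2229 to 4928 FPKM. So were 9 of 10 macrophage markers, at 115 against 47.6 to 59.5 FPKM, 8 of 9 fibroblast markers, at 1790 against 831 to 1057 FPKM, and 5 of 6 epicardial markers, at 71.6 against 19.8 to 41.1 FPKM. Apart from control 2, fibroblast markers summed to 921 and 1057 FPKM in controls 1 and 3 and to 831 to 893 FPKM in STZ hearts. All 9 were lower in STZ hearts, and 4 of them without overlap of the groups, against 3.62% of all genes. By the limma threshold given below, 0 of the 9 passed. The T cell receptor genes Cd3e and Cd3g were at 3.41 and 9.02 FPKM in control 2 and at no more than 0.0840 and 0.258 FPKM in any other heart. Of 5 lymphocyte markers only these 2 were highest in control 2. The markers Sln, Mpo and Cd3g were at 0 in at least 1 library. Endothelial markers summed to 200 FPKM in control 2 and to 268 to 327 FPKM elsewhere, but only 3 of 7 were lowest in it. Granulocyte markers summed to 14.9 against 5.71 to 10.7 FPKM, with 4 of 5 highest in control 2. Markers of dividing cells summed to 66.4 against 67.9 to 116 FPKM, with 2 of 6 lowest in control 2. What part these differences in makeup have in the values of the genes below was not tested, and in whole hearts fewer cells of a type and less RNA per cell cannot be told apart.

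No tested gene of the 39 passed the threshold for a difference between STZ and control hearts. After a filter of at least 1 FPKM in 3 or more libraries, 36 of the 39 were tested, and Bid, Casp1 and Pmaip1 were not. By limma on log2(FPKM + 1), with p adjusted by Benjamini-Hochberg over all 12431 genes tested, 0 of the 36 were higher and 0 lower in STZ hearts at an adjusted p under 0.05. The shares called over all genes were 0.0161% higher and 0.00804% lower, or 0.0241% in either direction. At an unadjusted p under 0.05, 0 of the 36 were found by limma, against 2.59% of all genes, and 0 by voom on recovered reads. The adjusted p ran from 0.922 to 0.999. Of the 36, 17 had a positive and 19 a negative difference, with a median of -0.0031 on the log2 scale, while the median over all genes tested was 0.031.

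The precision of these comparisons can be read from the 95% intervals of the differences. The interval lay wholly inside a 2-fold change for 35 of the 36 genes and inside a 1.5-fold change for 28 of them, on the log2(FPKM + 1) scale, which understates changes of low genes. Its half-width was 0.35 log2 units at the median. It was narrowest, 0.22, for the caspase gene Casp9 and widest, 0.77, for Bcl2l11, the gene of the BH3-only protein BIM. Bcl2l11 was thus the 1 tested gene whose interval, -0.37 to 1.16, reached past 2-fold.

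**Figure D1:**
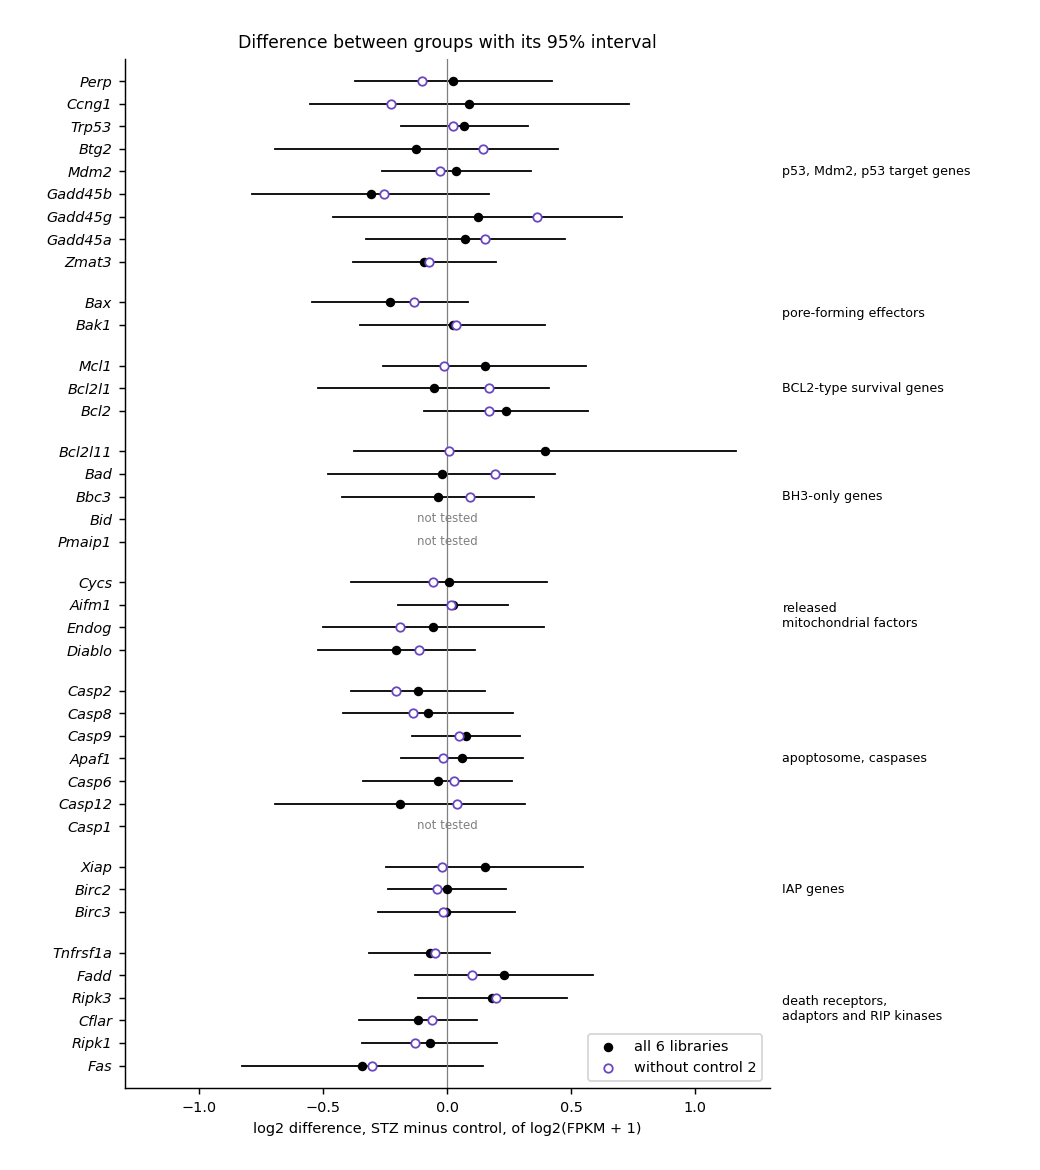
Difference between the group means of log2(FPKM + 1), STZ minus control (x axis, log2 units), for each gene (y axis, grouped by role). Black points and bars give the limma estimate and its 95% interval with all 6 libraries and open circles the estimate without control 2; all 36 bars cross 0, and that of Bcl2l11 is the widest.

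Sequences near the start sites give a view of which of these genes carry the letters that p53 recognises. RefSeq promoter windows of 300 bases on GRCm38.p6, 250 before and 50 after the start site, were found for 36 of the 39 genes (Pmaip1, Zmat3 and Perp had no entry), some with several start sites. A search on both strands for an exact match to the consensus of 1 p53 half-site, by name the decamer that occurs in pairs in p53 response elements, found it in 6 of the 46 windows (13.04%), against 2745 of 32851 windows of all genes (8.36%). The 6 windows belong to 6 different genes, which include Trp53 itself and 4 genes known as p53 targets. They are shown with 20 bases on either side and on the strand of the gene, with the matching decamer in capitals, since they are the stretches of the searched windows that match a half-site of the pathway's own factor.

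Trp53 (chr11:69580264-69580313, plus strand, decamer at -75 from the start site): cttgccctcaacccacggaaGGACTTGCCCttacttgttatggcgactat
Mdm2 (chr10:117710915-117710964, minus strand, decamer at -186): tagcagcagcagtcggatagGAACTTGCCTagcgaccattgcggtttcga
Ccng1 (chr11:40755442-40755491, minus strand, decamer at -185): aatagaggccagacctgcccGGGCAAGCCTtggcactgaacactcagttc
Gadd45a (chr6:67037418-67037467, minus strand, decamer at -40): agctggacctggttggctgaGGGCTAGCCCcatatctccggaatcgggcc
Bax (chr7:45467070-45467119, minus strand, decamer at -201): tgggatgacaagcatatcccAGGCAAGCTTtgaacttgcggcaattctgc
Birc2 (chr9:7836767-7836816, minus strand, decamer at 10): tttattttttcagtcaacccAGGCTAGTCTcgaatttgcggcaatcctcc

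A match is a description of letters and not of binding, and the absence of a match in the other windows says nothing about p53 elsewhere in those genes. The log2 differences of these 6 genes between STZ and control hearts did not share a direction: they were 0.069 for Trp53, 0.037 for Mdm2, 0.089 for Ccng1, 0.073 for Gadd45a, -0.23 for Bax and -0.0014 for Birc2. The letters TATAAA, searched on both strands with no overlap with the decamer counted against it, stood in 5 of the 46 windows (10.9%) and in 13.6% of all windows. They were found for Trp53, Cflar, Gadd45b, Gadd45g and Xiap.

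Trp53 (GRCm38 chromosome 11, 69580359 to 69591873, plus strand) was expressed in every heart at a moderate level. It stood at 11.8, 10.6 and 11.7 FPKM in controls 1 to 3 and at 10.97, 11.9 and 13.2 FPKM in STZ 1 to 3, or 11.4 ± 0.672 and 12.01 ± 1.10 FPKM (SD, n = 3 each). The groups overlapped, with the lowest value in control 2 and the highest in STZ 3, and the log2 difference was 0.069 (SE 0.108, 95% interval -0.19 to 0.33). With 1 library left out it ran from 0.0068 (without STZ 3) to 0.13 (without STZ 1), and it was 0.0068 on the recovered-read scale. Mdm2 (chromosome 10, 117688875 to 117710758, minus strand), which is both the brake on p53 and one of its targets, was at 10.7, 9.83 and 12.2 FPKM in control and 11.7, 9.87 and 12.2 FPKM in STZ hearts. The span of Mdm2 was thus nearly the same in both groups, and its difference was 0.037 (SE 0.126, interval -0.26 to 0.34). Without control 2 the Mdm2 difference was -0.030.

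Among the p53 target genes, levels differed widely, and none passed the threshold for a difference between the groups. Perp, a membrane protein gene of desmosomes and of p53-driven death, was the highest of all 39, above 98.4% of the genes tested. It was at 182, 145 and 199 FPKM in control and 170, 168 and 195 FPKM in STZ hearts. Its lowest value was that of control 2, below all 5 others, and the group difference was 0.025 (SE 0.167). Ccng1, which encodes cyclin G1 and is among the most steadily p53-responsive genes, was at 117, 55.8 and 101 FPKM in control and 93.4, 96.9 and 88.0 FPKM in STZ hearts. The Ccng1 value of control 2 was 0.563 times the mean of the other 5 libraries, while the other 5 lay within 88.0 to 117 FPKM. With all libraries the Ccng1 difference was 0.089 (SE 0.271), and without control 2 it was -0.23 (SE 0.0991; limma, adjusted p = 0.9999), with both remaining controls above all 3 STZ hearts. Without control 2 the groups of 5 of the 36 genes did not overlap, against 17.7% of all genes. Ccng1, Casp2 and Diablo were then lower in STZ hearts, and Bcl2l1 and Bad were higher.

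The GADD45 genes, which are induced by stress and take part in DNA repair and kinase signalling, had no common direction. Gadd45b was at 10.4, 9.42 and 6.54 FPKM in control and 7.54, 5.28 and 7.80 FPKM in STZ hearts, a log2 difference of -0.31 (SE 0.202, interval -0.79 to 0.17). Controls 1 and 2 were above all STZ hearts and control 3 was within their range. The Gadd45b difference was -0.15 without STZ 2, -0.19 without control 1 and -0.49 without control 3. Gadd45g was at 6.67 ± 2.39 and 7.21 ± 1.58 FPKM, and Gadd45a at 2.87 ± 0.640 and 3.06 ± 0.575 FPKM. Zmat3, an RNA-binding target of p53, was at 2.16, 2.06 and 1.72 FPKM in control and 1.79, 2.01 and 1.58 FPKM in STZ hearts (log2 difference -0.093, SE 0.121). Btg2, an antiproliferative target, had 17.5 FPKM in control 2 and 8.53 to 11.7 FPKM in the 5 other hearts. Of the 9 genes of p53 and its targets, 6 had positive and 3 negative differences, with a median of 0.037. Without control 2 these counts were 4 and 5 and the median was -0.030.

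**Figure D2:**
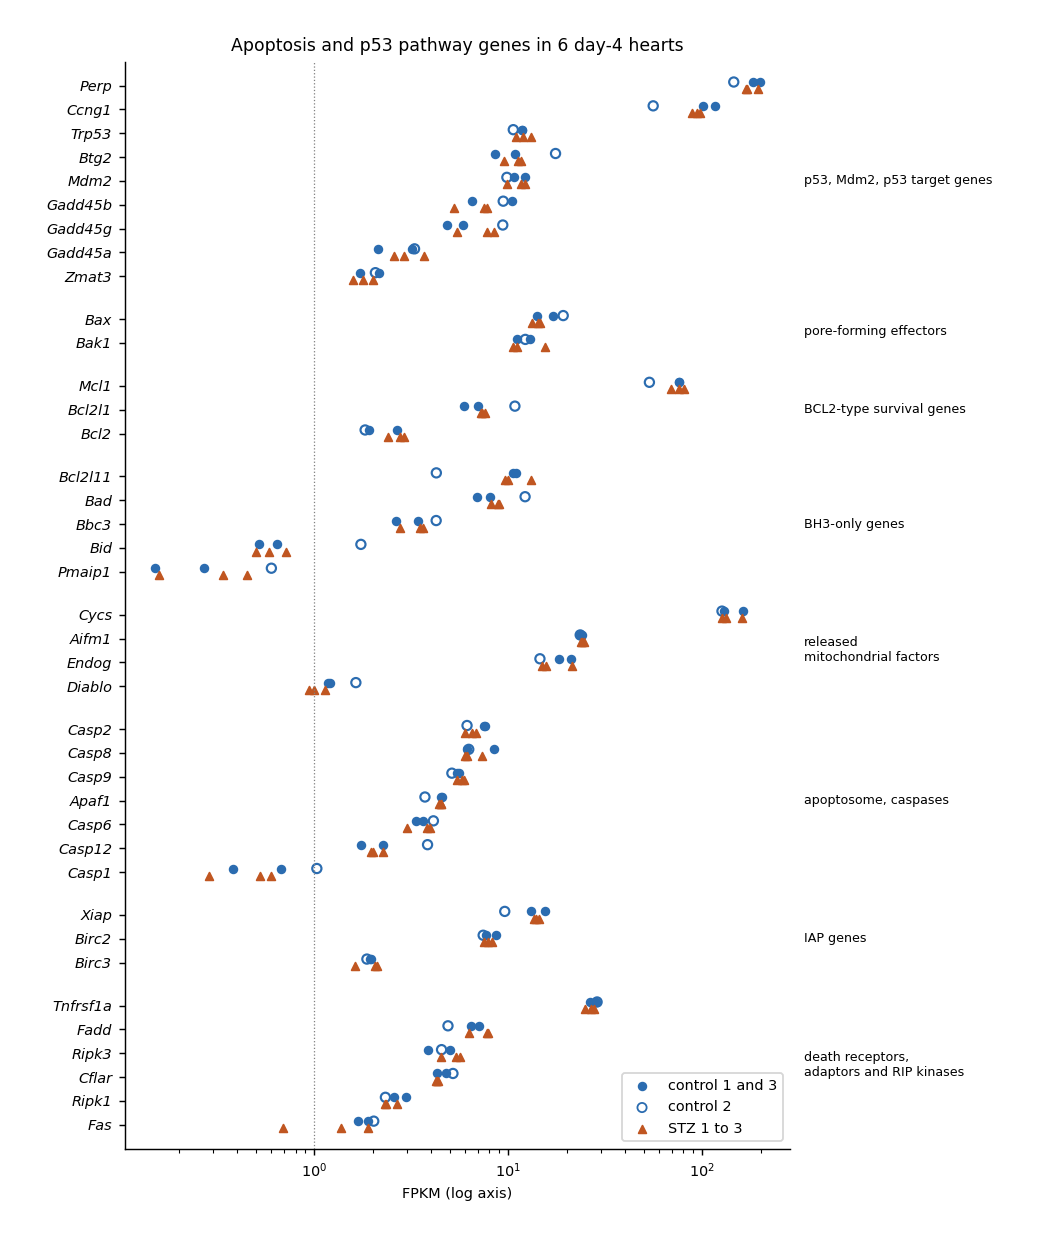
FPKM (x axis, log scale) of the 39 genes (y axis, grouped by role and ordered by mean level) in each heart. Filled circles are controls 1 and 3, open circles control 2 and triangles the STZ hearts, and the dotted line is at 1 FPKM; the open circle is the point farthest from the others for genes such as Bcl2l11, Bid, Casp12 and Btg2.

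The pore-forming effectors Bax and Bak1 were both expressed in all hearts, and neither passed the threshold for a difference between the groups. Bax (chromosome 7, 45461697 to 45466898, minus strand) was at 17.0, 19.2 and 14.1 FPKM in control and 14.2, 13.3 and 14.6 FPKM in STZ hearts. Controls 1 and 2 were above the STZ hearts and control 3 lay among them. The Bax difference was -0.23 (SE 0.133, interval -0.55 to 0.085; exact two-sided permutation p = 0.3, where 0.1 is the smallest p of the 20 assignments of 3 against 3), and it was -0.13 without control 2. Bak1 was at 11.1, 12.2 and 12.9 FPKM in control and 15.5, 10.6 and 11.1 FPKM in STZ hearts (difference 0.022, SE 0.157). STZ 1 held the highest Bak1 value and, alone among the 6 hearts, more Bak1 than Bax. Under the TMM, median-ratio, quantile and recovered-read scalings the sign of the small Bak1 difference turned negative.

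The 3 survival genes of the BCL2 family among the 39 were ordered the same way in every heart. Mcl1, a short-lived survival protein gene needed in heart muscle, was at 75.7, 53.4 and 76.03 FPKM in control and 69.0, 75.7 and 80.9 FPKM in STZ hearts. Control 2 had the least Mcl1, and the difference of 0.15 (SE 0.172) was -0.015 without it. Bcl2l1, which encodes BCL-XL, followed at 5.94 to 10.8 FPKM, with the highest value again in control 2. Bcl2 itself (chromosome 1, 106538178 to 106714274, minus strand) was lowest, at 1.91, 1.83 and 2.67 FPKM in control and 2.89, 2.39 and 2.77 FPKM in STZ hearts. Controls 1 and 2 were below all STZ hearts and control 3 was between them. The Bcl2 difference was 0.24 (SE 0.139, interval -0.094 to 0.57; limma, adjusted p = 0.922, exact two-sided permutation p = 0.2). The ranges of Mcl1, Bcl2l1 and Bcl2 over the 6 hearts did not overlap.

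Ratios between these genes, given as values with no test, showed the same spread among controls. The log2 ratio of Bax to Bcl2, a common summary of the balance between killing and survival, was 3.15, 3.39 and 2.39 in controls 1 to 3 and 2.30, 2.47 and 2.40 in STZ 1 to 3. The 3 STZ hearts were close together, at 2.39 ± 0.0897, and control 3 was level with them, so that the control mean of 2.98 ± 0.521 rested on controls 1 and 2. The log2 ratio of Bcl2l1 to Bcl2 was 1.86 ± 0.707 in control and 1.46 ± 0.127 in STZ hearts. That of Mcl1 to Bcl2l1 was 3.14 ± 0.734 and 3.35 ± 0.158, and in control 2 alone it was 2.30.

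**Figure D3:**
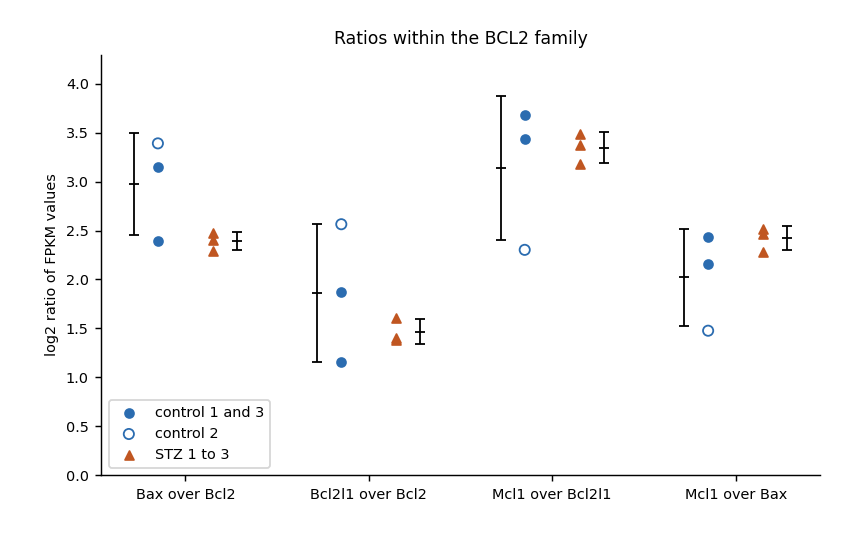
Log2 ratios of FPKM values (y axis) for 4 pairs of BCL2-family genes (x axis) in each heart, with the group mean and SD as a dash with bars. Circles are controls (open for control 2) and triangles STZ hearts; the STZ hearts are close together in each ratio, and control 2 is at the edge of each.

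Among the 5 BH3-only genes of the 39, Bcl2l11 and Bad were the most abundant. Bcl2l11 (chromosome 2, 128126038 to 128162547, plus strand) was at 10.96, 4.26 and 10.5 FPKM in control and 9.63, 9.97 and 13.1 FPKM in STZ hearts. Control 2 was far below the other 5, at 0.393 times their mean, the lowest such ratio of the 39 genes. The difference of 0.39 (SE 0.324) was 0.0073 without control 2. Bad, whose protein is held inactive by survival kinases, was at 9.04 ± 2.80 and 8.65 ± 0.441 FPKM and was highest in control 2, at 12.2 FPKM. Exons of Bad share 524 bases with Gpr137 on the opposite strand, which was at 4.52 to 6.08 FPKM. No strand setting is stated, so the Bad level is somewhat uncertain. Bbc3, the gene of the p53-induced protein PUMA, was at 2.63, 4.25 and 3.44 FPKM in control and 2.78, 3.61 and 3.50 FPKM in STZ hearts (difference -0.036, SE 0.163). The lowest and the highest Bbc3 values were both from controls, and without control 2 the difference was 0.093.

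Bid and Pmaip1 were below the filter and have no test. Bid, whose protein links caspase 8 to the mitochondrion, was at 0.519, 1.74 and 0.643 FPKM in control and 0.713, 0.587 and 0.501 FPKM in STZ hearts, or 132 reads in control 2 and 31 to 45 reads elsewhere. Its control 2 value was 2.93 times the mean of the other 5, the highest such ratio of the 39 genes. Exons of Bid share 628 bases with Bcl2l13 on the opposite strand, which was at 8.29 to 13.4 FPKM, and no strand setting is stated, so reads of the pair cannot be told apart there. Pmaip1, the gene of NOXA, another p53-induced BH3-only protein, rested on 7 to 34 reads per library and was at 0.340 ± 0.233 and 0.315 ± 0.147 FPKM.

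Of the factors released from mitochondria, Cycs, the gene of cytochrome c, was the second most abundant of the 39. It was at 163, 126 and 129 FPKM in control and 161, 127 and 133 FPKM in STZ hearts, a difference of 0.0091 (SE 0.166). Each group held 1 library near 160 FPKM and a pair near 130 FPKM. Cycs has 9 annotated pseudogene copies that match it at 90.1% to 99.4% of aligned bases and together had a mean of 4.98 FPKM, so its value is somewhat uncertain. Aifm1, encoding apoptosis-inducing factor, had the lowest spread over the 6 deposited values of any of the 39, at 24.1, 23.5 and 23.4 FPKM in control and 24.5, 23.9 and 23.7 FPKM in STZ hearts. Its coefficient of variation over the 6 hearts, 1.68%, was below the 2.41% that read counting alone would give. This holds for the authors' scale, on which control 2 was at 0.982 times the mean of the others, while on the recovered-read scale it was at 1.18 times. Endog, the mitochondrial endonuclease G gene, was at 21.2, 14.6 and 18.2 FPKM in control and 21.4, 14.8 and 15.6 FPKM in STZ hearts (difference -0.056, SE 0.188). Its exons share 379 bases with Spout1 on the opposite strand, which was at 2.33 to 4.225 FPKM, so its level is somewhat uncertain too.

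Diablo, whose protein SMAC blocks the inhibitors of apoptosis, was the 1 gene of the 36 whose groups did not overlap. It was at 1.18, 1.64 and 1.204 FPKM in control and 0.939, 0.994 and 1.14 FPKM in STZ hearts. All 3 STZ values were lower, with control 2 highest and a small gap between control 1 and STZ 3. Over all genes tested 3.62% had all STZ values lower, 4.92% had all higher and 8.54% had either, so that 1 of 36 lower and 0 of 36 higher is not above the background. The Diablo difference was -0.20 (SE 0.134, interval -0.52 to 0.11; limma, adjusted p = 0.922; exact two-sided permutation p = 0.1, the smallest possible). It was -0.12 without control 2, -0.35 with a pseudocount of 0.1 and -0.44 by voom. It rested on 103 to 216 reads per library, and control 3 and STZ 3 both had 130 reads. Exons of Diablo share 1326 bases with B3gnt4 on the opposite strand, listed at 0 FPKM. They share 1193 bases with Gm49027 on the same strand, at 0 to 0.12 FPKM. How reads in the shared bases were assigned is not stated, so the Diablo level is uncertain. On the scale of recovered reads the Diablo groups overlapped and those of Casp2 did not.

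Neither the scaffold Apaf1 nor any tested caspase gene passed the threshold for a difference between the groups. Casp8 (chromosome 1, 58795374 to 58847503, plus strand), the initiator of the death receptor route, was at 6.14, 6.25 and 8.43 FPKM in control and 6.14, 5.99 and 7.32 FPKM in STZ hearts, a difference of -0.078 (SE 0.144). Casp9 (chromosome 4, 141793612 to 141815976, plus strand), the initiator of the mitochondrial route, was at 5.55, 5.12 and 5.42 FPKM in control and 5.79, 5.42 and 5.91 FPKM in STZ hearts. The Casp9 difference was 0.075 (SE 0.0915, interval -0.14 to 0.29), and the groups overlapped, since STZ 2 was below control 1. Casp2, an initiator linked to DNA damage and chromosome number, was at 7.49, 6.13 and 7.61 FPKM in control and 6.83, 5.99 and 6.46 FPKM in STZ hearts. Its difference was -0.12 (SE 0.114), and -0.21 (SE 0.0861; limma, adjusted p = 0.9999) without control 2, where the 2 remaining controls were above all STZ hearts. Without control 2 such a split, in either direction, was seen in 17.7% of all genes.

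Apaf1 was at 4.47, 3.72 and 4.56 FPKM in control and at 4.46 ± 0.0471 FPKM in STZ hearts, and apart from control 2 all its values lay between 4.40 and 4.56 FPKM. Casp6, an executioner caspase gene, was at 3.69 ± 0.391 and 3.58 ± 0.510 FPKM. Casp12, a caspase gene linked to endoplasmic reticulum stress and inflammation, was at 1.73, 3.84 and 2.26 FPKM in control and 2.01, 1.95 and 2.26 FPKM in STZ hearts. The Casp12 value of control 2 was 1.88 times the mean of the other 5, and the difference of -0.19 (SE 0.212) was 0.041 without it. Casp1, the inflammasome caspase gene and a neighbour of Casp12 on chromosome 9 (38164 bases apart, on the same strand), was at 0.674, 1.03 and 0.381 FPKM in control and 0.526, 0.596 and 0.288 FPKM in STZ hearts, on 8 to 33 reads. Both neighbours were highest in control 2.

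The inhibitor of apoptosis genes among the 39 were ordered Xiap, Birc2 and Birc3, with no overlap of their ranges over the 6 hearts. Xiap, whose protein binds caspases directly, was at 13.02, 9.59 and 15.4 FPKM in control and 13.5, 13.8 and 14.4 FPKM in STZ hearts. Control 2 had the lowest value, and the Xiap difference of 0.15 (SE 0.167) was -0.021 without it. Birc2, the gene of cIAP1, was at 7.89 ± 0.635 and 7.87 ± 0.394 FPKM. Birc3, the gene of cIAP2, lies 11634 bases from Birc2 on chromosome 9 and was at 1.97, 1.87 and 1.94 FPKM in control and 2.05, 1.62 and 2.10 FPKM in STZ hearts (difference -0.0047, SE 0.116). A pseudogene, Gm7019, matches Birc3 at 99.2% over 369 bases and had a mean of 0.825 FPKM, so the Birc3 level is uncertain.

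Of the 6 genes of the death receptor route among the 39, Tnfrsf1a was the most abundant and Fas the least. Tnfrsf1a, the gene of the main TNF receptor, was at 28.4, 28.7 and 26.3 FPKM in control and 25.0, 26.8 and 27.5 FPKM in STZ hearts, a difference of -0.071 (SE 0.103). Fas was at 1.68, 2.02 and 1.90 FPKM in control and 1.37, 1.88 and 0.688 FPKM in STZ hearts. STZ 1 and STZ 3 were below all controls and STZ 2 was within their range. The Fas difference was -0.34 (SE 0.205, interval -0.83 to 0.14; limma, adjusted p = 0.922, exact two-sided permutation p = 0.2), and it was -0.13 without STZ 3, whose value rested on 23 reads. It was -0.52 without STZ 2, -0.57 with a pseudocount of 0.1, -0.69 by voom and -0.20 with array weights.

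The adaptor Fadd was at 7.03, 4.89 and 6.44 FPKM in control and 7.86, 7.75 and 6.30 FPKM in STZ hearts (difference 0.23, SE 0.15), with control 2 lowest, and at 0.098 without it. Cflar, a caspase-8-like inhibitor that lies 36489 bases from Casp8 on the same strand of chromosome 1, was at 4.75 ± 0.456 and 4.29 ± 0.0494 FPKM. A pseudogene, Gm9845, matches Cflar at 100% over 598 bases and had a mean of 0.705 FPKM. The kinase genes Ripk1 and Ripk3, which act in inflammation and necroptosis, were at 2.62 ± 0.325 and 2.44 ± 0.196 FPKM and at 4.45 ± 0.577 and 5.18 ± 0.595 FPKM. Exons of Ripk1 share 241 bases with Serpinb6a on the opposite strand, which was at 13.04 to 17.2 FPKM, so the Ripk1 level is uncertain. Of the 6 genes of this route 2 had positive and 4 negative differences, with a median of -0.071.

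A share of the spread of these genes moved with 1 heart. Control 2 held the highest value of 15 and the lowest value of 14 of the 39 genes, so that 29 (74.4%) were outside the range of the other 5 libraries, and the same was true of 69.1% of all genes tested. The highest of its ratios to the mean of the others were those of Bid (2.93), Pmaip1 (2.20), Casp1 (2.09), Casp12 (1.88) and Btg2 (1.70). The lowest were those of Bcl2l11 (0.393), Ccng1 (0.563), Xiap (0.683), Fadd (0.691) and Mcl1 (0.708). On the scale of recovered reads control 2 was highest for 22 and lowest for 5 of the 39 genes, and for 46.9% and 23.0% of all genes tested, so that how many genes were high or low in it depends on the scale.

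**Figure D4:**
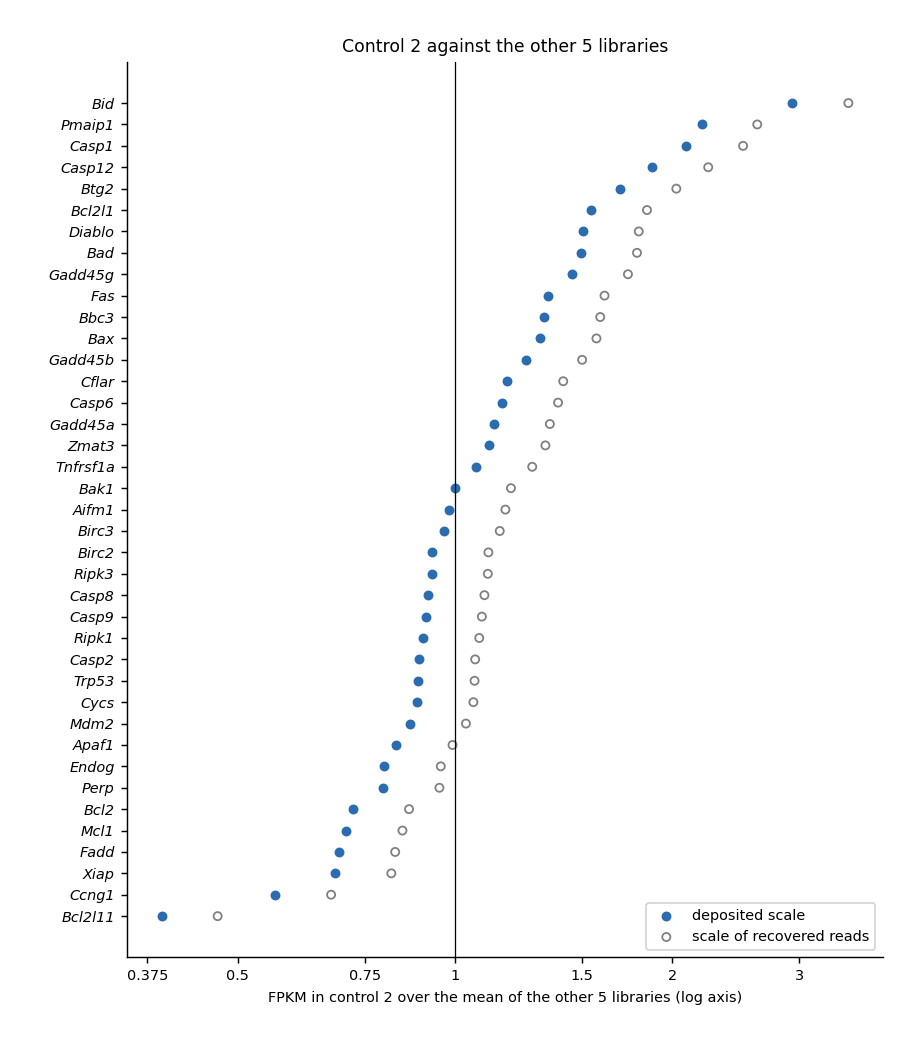
FPKM in control 2 divided by the mean of the other 5 libraries (x axis, log scale) for each of the 39 genes (y axis, ordered by the ratio). Filled points use the deposited values and open points the scale of recovered reads, which lies further right for every gene; on the deposited scale ratios run from 0.393 (Bcl2l11) to 2.93 (Bid).

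The coefficient of variation over all 6 hearts was 14.8% at the median of the 39 genes, and 10.7% without control 2. The same medians over all genes tested were 15.1% and 10.3%, so the 39 genes were about as variable as the rest. Removing control 2 lowered the coefficient for 28 of the 39, and it rose for others such as Fas, from 31.3% to 33.5%, and Gadd45b, from 23.9% to 25.3%. The coefficient went from 60.6% to 14.8% for Bid, from 32.4% to 10.95% for Casp12, from 30.3% to 12.6% for Bcl2l11 and from 7.24% to 1.24% for Apaf1. Without control 2, 10 of the 39 genes varied no more than 1.5 times what read counting alone gives, among them Bid, Casp1, Casp9, Casp12, Diablo, Aifm1 and Apaf1. The abundant genes Cycs and Ccng1 stayed well above that limit, at 12.4% against 1.09% and 11.01% against 1.29%.

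**Figure D5:**
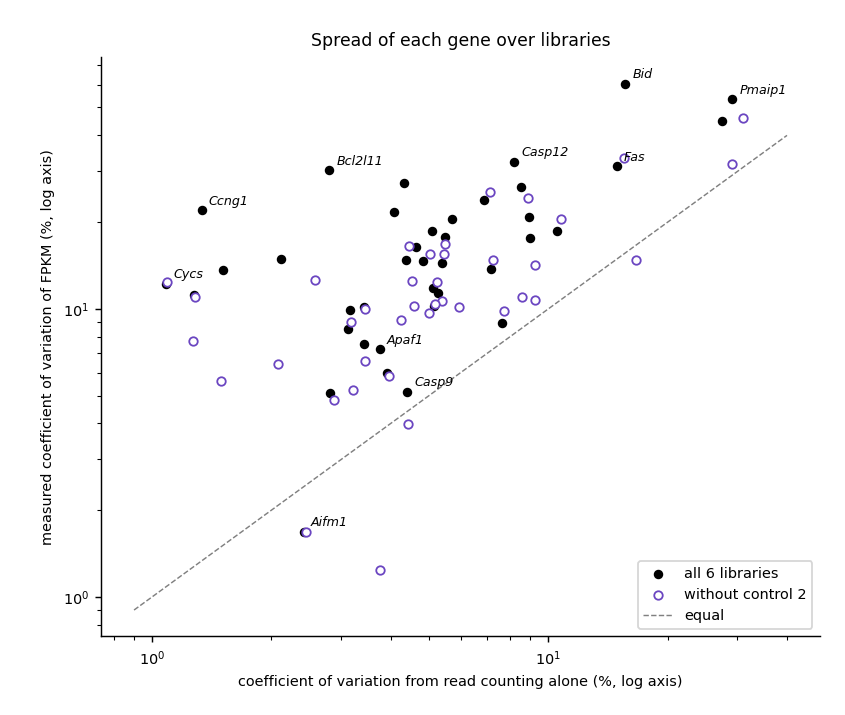
Measured coefficient of variation of FPKM (y axis, %, log scale) against the coefficient that counting of reads alone would give (x axis, %, log scale), 1 point per gene with all 6 libraries (black) and without control 2 (open). The dashed line marks equal values; the point of Aifm1 lies under it with all libraries, and those of Bid and Bcl2l11 are far above it.

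The remaining genes of the pathway were taken from a list of 46 other p53 regulators, p53 targets and apoptosis genes. Of these, 39 passed the filter and 0 passed the limma threshold in either direction, with 0 at an unadjusted p under 0.05. Positive differences were seen in 24 and negative ones in 15, with a median of 0.022. The gene of lowest p was Mlkl, the executor of necroptosis downstream of Ripk3, at 1.83, 1.79 and 2.78 FPKM in control and 3.49, 3.02 and 2.57 FPKM in STZ hearts (log2 difference 0.37; limma, unadjusted p = 0.0548, adjusted p = 0.922). Its groups overlapped in control 3 and STZ 3.

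The groups did not overlap for 3 of the 39 tested genes from the list of 46 other genes, all with higher STZ values. Over all genes tested 4.92% had all STZ values higher, 3.62% had all lower and 8.54% had either. In either direction, 3 of these 39 is thus not above the background. By direction, 3 of 39 higher is above the 4.92% and 0 of 39 lower is below the 3.62%. With so few genes this is not read as a result about the list. Cdkn1a, the gene of p21 and the best known arrest target of p53, was at 8.22, 7.79 and 9.78 FPKM in control and 9.83, 10.5 and 9.98 FPKM in STZ hearts (log2 difference 0.22; limma, adjusted p = 0.922). Parp1, a DNA break sensor, was at 19.8, 18.5 and 20.4 FPKM in control and 23.3, 23.3 and 21.2 FPKM in STZ hearts. The repair nuclease gene Ercc5 was at 3.80, 3.48 and 3.58 FPKM and at 4.82, 4.10 and 3.91 FPKM. The p53 targets Trp53inp1 and Siva1 had negative differences of -0.36 and -0.30, each with its highest value in control 2. The 7 genes not tested were Rprm, Bcl2a1b, Hrk, Casp4, Traf1, Tnf and Fasl, and Fasl, the ligand of Fas, was listed at 0 in 5 of the 6 hearts.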

How the data were processed

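Per the labels' protocols, total RNA of 6 hearts (3 control, 3 STZ) went into a SMARTER mRNA-seq kit. The deposited table holds FPKM values that the authors computed per kilobase of the gene length listed there and per a scale they set for each library. No header states the unit, which was inferred from the table's own short name and from its values: 100% of the values above 0, multiplied by the length, were whole multiples of 1 step per library within 0.01 reads, which gave the reads quoted. The genome build was GRCm38 (mm10), per the submitters' processing notes. Which aligner and counter were run, and whether strand was used, is not given in the sources used here.

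The treatment and title labels gave each heart its group and number. A linear model with group as its only term was fitted to log2(FPKM + 1) of 12431 genes by limma (version 3.58.1, R 4.3.3), with the variance trended on the mean. The fit was tested on simulated data. Tests were two-sided, with Benjamini-Hochberg adjustment over all genes tested. The 39 genes, the other lists, the tests and the alternatives were chosen with earlier results of these data known. Values in every sample were given for genes with non-overlapping groups, the 2 of lowest p and the most abundant of each of 8 roles, and Trp53, Mdm2, Bax, Bcl2, Casp8 and Casp9. Of the 46 other genes, the 6 of lowest p were named. Values of Ccng1, Bid, Casp1, Aifm1 and Apaf1, and the mention of Fasl, were added outside that rule after the values were seen. Pseudogene copies were found with blastn 2.17.0 in GENCODE M21 transcripts (at least 90% identity over 200 bases), whose positions equal the deposited ones for 36 of the 39 genes. No pair of libraries of a group agreed within sampling noise (chi-square per degree of freedom of at least 12.8). Intervals of read counts cover counting error only.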

Additional observations from a re-analysis of the deposited data

How the results depend on the processing

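The alternatives were 2 other pseudocounts, no filter or a mean of at least 5 FPKM, 4 other scalings, a replicate block, voom on recovered reads, array weights and each library left out. An edgeR fit of recovered reads was planned and not run, since the unit was read as FPKM. In each of the 17 settings 0 of the members tested (36 in most, 39 with no filter, 23 at a mean of 5 FPKM) and 0 of the other pathway genes tested passed, and the lowest adjusted p of any member was 0.691 (limma, without control 3). Over all genes, 3 passed with all libraries, 2 to 5 with 1 library left out (5 without control 3), 1 with voom and 8 with array weights, which gave control 2 a weight of 0.146. The median difference of the genes was -0.060 on the recovered-read scale and -0.073 with voom, where the median of all genes was -0.025 and -0.029, and ran from -0.036 (without STZ 1) to 0.032 (without STZ 2). Genes with non-overlapping groups numbered 0 at a mean of 5 FPKM or more, which leaves out Diablo, and 2 to 7 with 1 library left out, where fewer samples make such a split more frequent (13.9% to 22.7% of all genes). At an unadjusted p under 0.05 were Gadd45b, Bax and Bcl2 without control 3 (5.62% of all genes), Fas without STZ 2 (1.56%) and Casp2 with array weights (5.68%).

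With the replicate number as a block 0 of all genes passed. Deviations from the group means had correlations of 0.021, -0.041 and 0.092 between same-numbered libraries. Other pairs across the groups had -0.139 to 0.081. With 3 libraries per group these values cannot decide whether the numbers pair the samples. Of 384 values of single genes under alternatives, 342 kept their direction and 42 changed sign, with 0 past the threshold in either state. The cause of these turns was not tested. Under TMM scaling they were -0.0079 for Perp, -0.0084 for Bak1 and -0.024 for Cycs, and under median-ratio scaling -0.0089, -0.0094 and -0.025. Quantile normalization gave -0.0097 for Bak1 and 0.00097 for Birc3. For Mdm2, Perp, Bak1 and Cycs they were -0.025, -0.042, -0.041 and -0.058 on the recovered-read scale, -0.026, -0.043, -0.045 and -0.059 with voom and -0.049, -0.089, -0.0080 and -0.13 with array weights, which also gave 0.15 for Bbc3 and 0.024 for Casp12. With 1 library left out the ranges were -0.030 to 0.12 for Mdm2, -0.10 to 0.12 for Perp, -0.14 to 0.12 for Bak1, -0.015 to 0.24 for Mcl1, -0.17 to 0.093 for Bbc3, -0.092 to 0.12 for Cycs, -0.21 to 0.065 for Endog, -0.16 to 0.052 for Casp8, -0.37 to 0.041 for Casp12, -0.021 to 0.29 for Xiap and -0.049 to 0.073 for Birc3.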
